A study of Mus musculus with 4 samples.

Results

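The 4 Hox clusters of a mouse pre-B acute lymphoblastic leukemia culture were described by the peaks of 3 chromatin immunoprecipitation and sequencing (ChIP-seq) libraries. The set comprised 38 Hox genes, 10 in Hoxa, 10 in Hoxb, 9 in Hoxc and 9 in Hoxd. The clusters were taken as 4 fixed windows of mouse build mm9, set by position but chosen with earlier results of these data known. Hoxa was chromosome 6 from 52080001 to 52230000 (150 kb), Hoxb chromosome 11 from 96040001 to 96250000 (210 kb), Hoxc chromosome 15 from 102740001 to 102880000 (140 kb) and Hoxd chromosome 2 from 74480001 to 74620000 (140 kb). Together they spanned 640 kb and held 66 of 5616 H3K27me3 peaks, 67 of 32388 H3K27ac peaks and 118 of 77749 PHF6 peaks.

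All libraries came from cultured C57BL/6J pre-B leukemia cells, p19 null and overexpressing BCR-ABL1, the fusion kinase of Philadelphia chromosome leukemia. The 3 antibodies recognised PHF6, H3K27ac and H3K27me3, with 1 library each, and the 1 input library without antibody was not analysed here. There was no untreated or normal pre-B group, so every value describes this transformed culture. With 1 library per antibody no p-value was computed. The 95% intervals given below cover counting error only, and neighbouring peaks are not independent.

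Hox genes encode homeodomain transcription factors that set position along the body axis, and their order on the chromosome follows the order of the body regions in which they act. In cells that do not use them the clusters are a classic target of Polycomb repressive complex 2, which trimethylates lysine 27 of histone H3 (H3K27me3). Acetylation of the same lysine (H3K27ac) marks active promoters and enhancers, and 1 lysine cannot carry both marks. PHF6, a nuclear protein with zinc-binding plant homeodomain-like regions, is a tumour suppressor mutated in T-cell leukemia. In blood cells, genes of the Hoxa cluster such as Hoxa9 and Hoxa10 are active in stem and progenitor cells and are silenced as cells mature, and Hoxa9 drives several leukemias.

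By the lowest coordinate of each gene, the RefSeq table of GRCm38.p6 orders the members as follows. Where genes overlap, as Hoxd3 and Hoxd4 do, this need not be the order of their start sites. The places of Hoxb3 beside Hoxb4 and of Hoxd3 beside Hoxd4 are therefore not to be read as body order. Hoxa runs Hoxa2, Hoxa3, Hoxa4, Hoxa5, Hoxa6, Hoxa7, Hoxa9, Hoxa10, Hoxa11 and Hoxa13. Hoxb runs the other way, from Hoxb13 through Hoxb9, Hoxb8, Hoxb7, Hoxb6, Hoxb5, Hoxb3, Hoxb4 and Hoxb2 to Hoxb1. Hoxc runs Hoxc13, Hoxc12, Hoxc11, Hoxc10, Hoxc9, Hoxc8, Hoxc6, Hoxc5 and Hoxc4. Hoxd runs Hoxd13, Hoxd12, Hoxd11, Hoxd10, Hoxd9, Hoxd8, Hoxd3, Hoxd4 and Hoxd1. The low-coordinate end of the Hoxa window is thus the anterior end (Hoxa2, a hindbrain and branchial arch gene), and the low end of the other 3 windows is the posterior end (Hoxb13, Hoxc13 and Hoxd13). The next coding genes outside the members were Skap2 and Evx1 at Hoxa, Ttll6 and Skap1 at Hoxb, Calcoco1 and Smug1 at Hoxc, and Evx2 and Mtx2 at Hoxd. Gene positions in mm9 were not used here, so peaks are given by position in the window and not assigned to single genes. The orientation of each cluster was taken to be the same in both builds.

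Promoter sequences are shown first, because CG-rich promoters are the sequence setting in which Polycomb marks are known to accumulate. RefSeq sequences of GRCm38.p6 were matched for 22 of the 38 members, with 24 promoters in all (9 Hoxa, 3 Hoxb, 1 Hoxc and 9 Hoxd members). In the 250 bases upstream of the start site the members had a median of 12.5 CG dinucleotides (range 2 to 35), against a median of 6 over 32851 promoters of the table. CG reads the same on both strands, and at least 1 was present in 100% of the member promoters and in 92.1% of all promoters. The sequences below are the upstream 250 bases on the strand of the gene, 5′ to 3′, with each CG in capitals. They are the promoter richest in CG of each cluster and, for contrast, that of Hoxa9, the poorest of Hoxa.
Hoxa13 (chromosome 6, minus strand, 35 CG): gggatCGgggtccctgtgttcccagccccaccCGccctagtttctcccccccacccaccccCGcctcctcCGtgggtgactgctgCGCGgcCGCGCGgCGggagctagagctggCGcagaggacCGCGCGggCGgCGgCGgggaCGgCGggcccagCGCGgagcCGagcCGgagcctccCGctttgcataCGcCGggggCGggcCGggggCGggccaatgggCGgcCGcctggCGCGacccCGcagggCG
Hoxa9 (chromosome 6, minus strand, 3 CG): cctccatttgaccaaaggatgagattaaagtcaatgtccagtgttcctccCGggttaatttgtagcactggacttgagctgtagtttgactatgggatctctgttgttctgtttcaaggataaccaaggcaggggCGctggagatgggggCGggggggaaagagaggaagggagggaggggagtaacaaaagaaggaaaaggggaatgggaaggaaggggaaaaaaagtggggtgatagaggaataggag
Hoxb4 (chromosome 11, plus strand, 14 CG): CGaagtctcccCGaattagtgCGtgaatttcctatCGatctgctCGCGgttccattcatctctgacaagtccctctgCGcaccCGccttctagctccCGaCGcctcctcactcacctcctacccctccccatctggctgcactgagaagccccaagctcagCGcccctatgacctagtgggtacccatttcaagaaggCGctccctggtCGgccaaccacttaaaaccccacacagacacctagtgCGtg
Hoxc4 (chromosome 15, plus strand, 8 CG): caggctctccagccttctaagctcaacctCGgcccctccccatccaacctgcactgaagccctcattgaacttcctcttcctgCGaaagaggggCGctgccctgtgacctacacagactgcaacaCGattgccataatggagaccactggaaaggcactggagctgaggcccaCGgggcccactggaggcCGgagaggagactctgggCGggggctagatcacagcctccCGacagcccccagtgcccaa
Hoxd13 (chromosome 2, plus strand, 31 CG): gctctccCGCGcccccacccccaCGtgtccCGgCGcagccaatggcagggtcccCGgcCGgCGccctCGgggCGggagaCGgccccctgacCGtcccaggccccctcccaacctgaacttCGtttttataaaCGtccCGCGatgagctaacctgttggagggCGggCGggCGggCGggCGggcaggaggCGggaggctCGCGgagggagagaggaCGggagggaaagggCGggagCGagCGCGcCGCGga

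The spread within a cluster was wide: Hoxa13, a limb and genital tract gene, and Hoxd13, a digit gene, had 35 and 31 CG, while Hoxa9 and 1 of the 2 Hoxd11 promoters had 3 and 2. Hoxb4, a regulator of blood stem cells, had 14, and Hoxc4 was the only Hoxc member matched.

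The clusters also hold miRNA genes, which share seeds across clusters. In the same table Mir196b lies between Hoxa9 and Hoxa10, Mir196a-1 between Hoxb13 and Hoxb9, and Mir196a-2 between Hoxc10 and Hoxc9. Mir10a lies within Hoxb3 and Mir10b within the overlapping Hoxd3 and Hoxd4. Their RefSeq mature 5p arms are given with the seed (bases 2 to 8) in capitals. Both Mir10 genes share 1 seed and all Mir196 genes another, while Mir615, within Hoxc5, has neither. No library measured these RNAs.
mmu-miR-10a-5p: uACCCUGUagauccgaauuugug
mmu-miR-10b-5p: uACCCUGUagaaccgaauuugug
mmu-miR-196a-5p: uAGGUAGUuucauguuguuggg
mmu-miR-196b-5p: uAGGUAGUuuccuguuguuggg

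The first comparison asked how each list differed between the clusters and their surroundings. All 3 lists were denser in the windows than in flanks of equal length on both sides. H3K27me3 had 66 summits in the windows and 25 in the flanks, a density ratio of 5.28 (95% counting interval 3.29 to 8.73), which was 9.64 without the Hoxb window. H3K27ac had 67 and 28, a ratio of 4.79 (3.04 to 7.73). PHF6 had 118 and 60, a ratio of 3.93 (2.86 to 5.46). By bases, H3K27me3 peaks covered 14.8% of the windows and 2.09% of the flanks, H3K27ac peaks 15.4% and 2.81%, and PHF6 peaks 29.3% and 5.59%. Sequencing depth is unknown, and the part of the input signal in these densities was not tested.

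**Figure D1:**
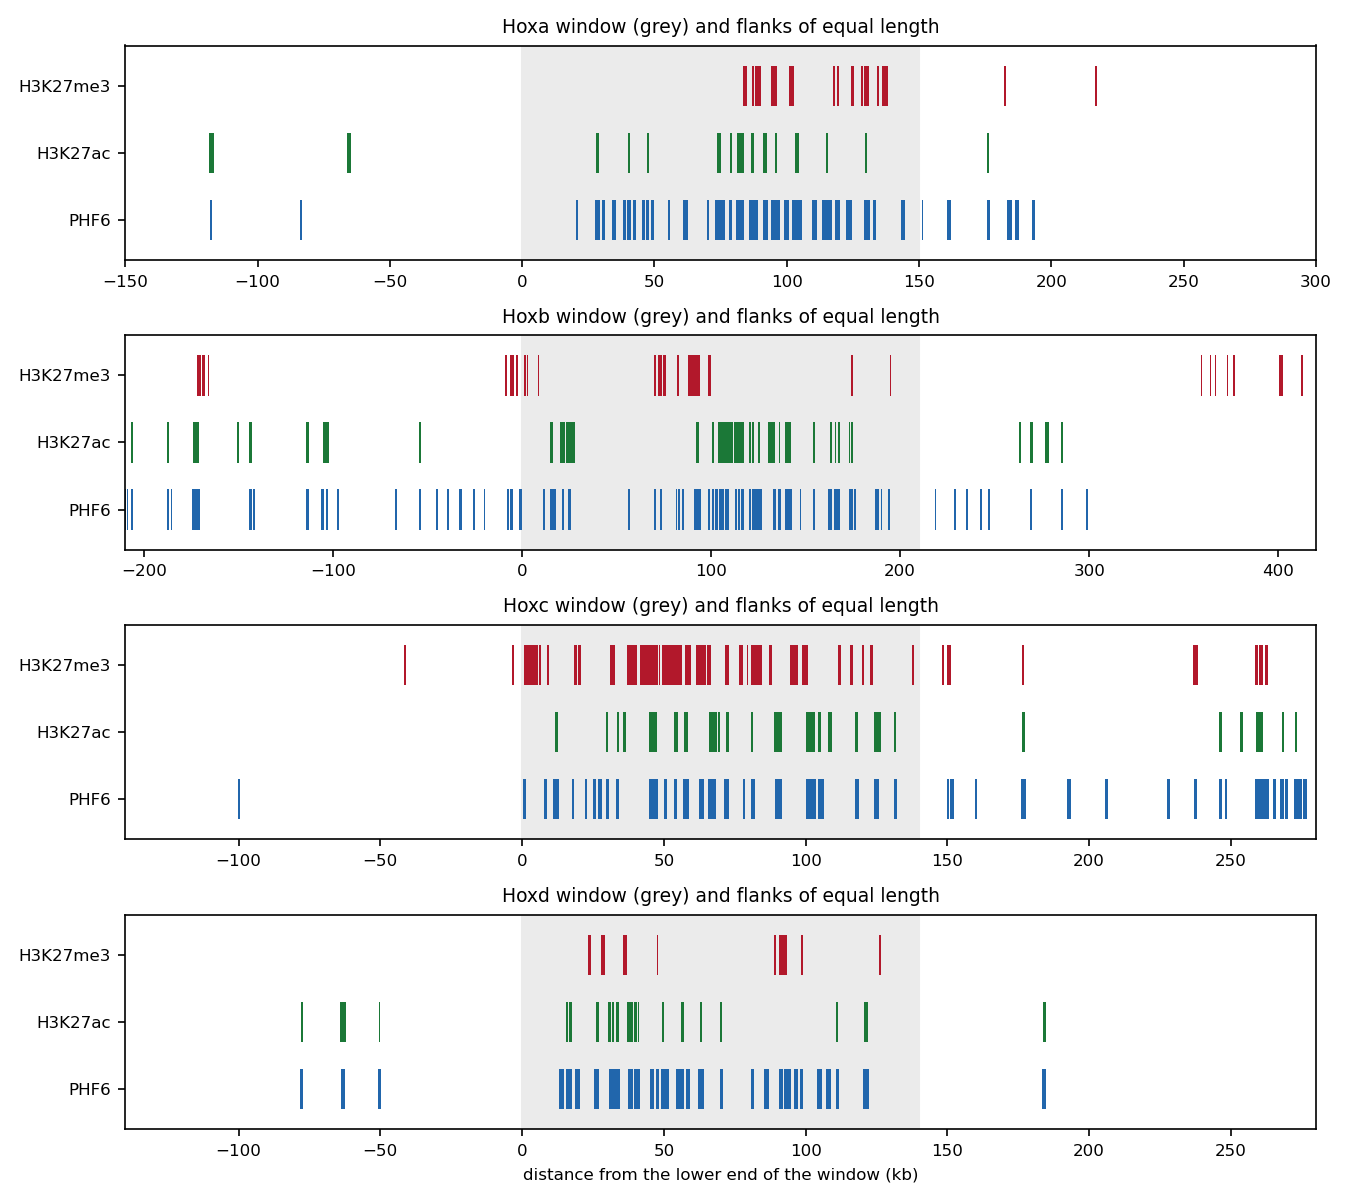
Peaks of H3K27me3, H3K27ac and PHF6 across each Hox window (grey) and its flanks of equal length, in kb from the lower end of the window; each bar is 1 peak drawn to its width. H3K27me3 peaks are spread along the Hoxc window, occupy only the upper side of Hoxa, and are few in Hoxd, while PHF6 peaks run through all 4 windows.

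The flanks were not alike. The Hoxd window stood in nearly empty surroundings: its flanks held 0 H3K27me3, 4 H3K27ac and 4 PHF6 peaks, against 8, 15 and 25 in the window. The Hoxa flanks held 2, 3 and 8 peaks, against 12, 12 and 31. The Hoxb lower flank was rich in PHF6, with 22 peaks over 12.5% of its bases, and so was the Hoxc upper flank, with 18 peaks over 17.0%. The window-to-flank ratio for PHF6 was accordingly 12.5 (4.32 to 49.4) at Hoxd and 7.75 (3.48 to 19.5) at Hoxa, and 2.55 (1.53 to 4.30) at Hoxb and 2.63 (1.39 to 5.05) at Hoxc. For H3K27me3 it was 12 (2.67 to 110.4) at Hoxa, 7.33 (3.43 to 17.4) at Hoxc and 1.86 (0.804 to 4.26) at Hoxb, whose interval includes 1. At Hoxd, with no H3K27me3 summit in the flanks, the lower bound of the ratio was 3.41.

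The contrast reached farther than the adjoining flanks. Each side was followed for 5 window lengths, giving 40 steps over the 4 clusters. No step matched its window in H3K27me3: the highest step had 5.96% of bases in peaks, the median step 0.819%, and 14 of 40 steps had none. For H3K27ac 1 of 40 steps reached its window, at Hoxa. For PHF6 2 of 40 did, 1 at Hoxb with 28.9% and 1 at Hoxc with 30.2% of bases in peaks.

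**Figure D2:**
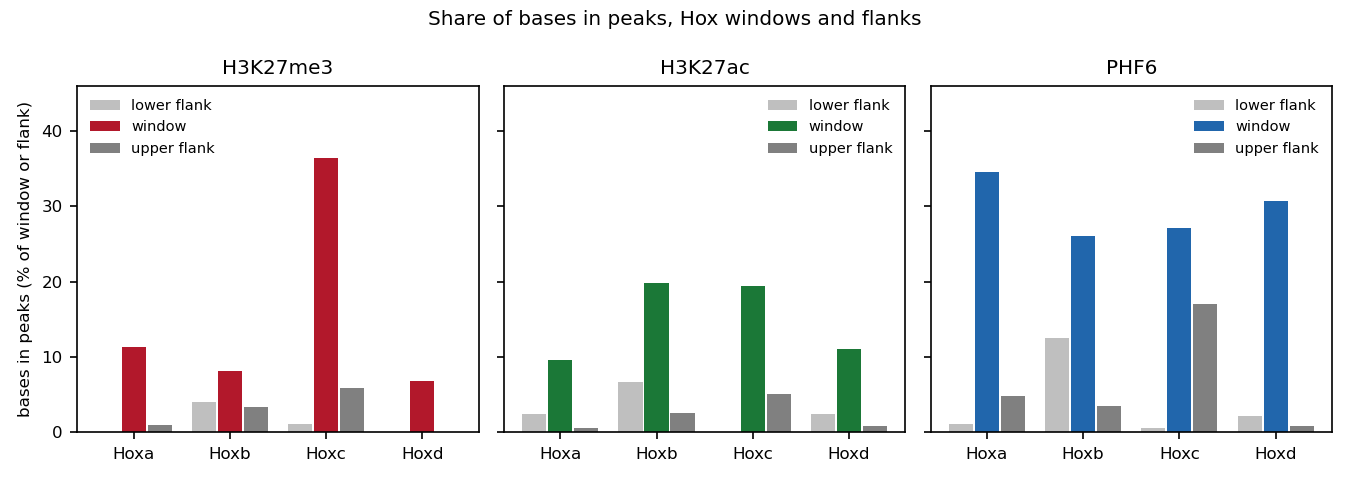
Bases in peaks as a percentage of each Hox window (coloured bars) and of its lower and upper flanks of equal length (light and dark grey bars), for each list. The H3K27me3 bar of Hoxc, 36.5%, is more than that of the other windows, while the PHF6 bars lie between 26.1% and 34.6%.

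The windows were then placed among all tiles of the same length, laid end to end from each chromosome's start to its last peak, with tiles touching a Hox window left out. The background was the share of tiles that equalled or exceeded the window in bases covered by peaks. For H3K27me3 it was 0.0227% at Hoxa (4 of 17589 tiles of 150 kb), 0.0478% at Hoxb (6 of 12563 tiles of 210 kb), 0.00530% at Hoxc (1 of 18851 tiles of 140 kb) and 0.149% at Hoxd (28 of 18851). The 1 tile above Hoxc began at position 126000001 of chromosome 8 and had 50.3% of its bases in H3K27me3 peaks and 42.7% in H3K27ac peaks. All 4 Hox clusters were thus among the most H3K27me3-covered stretches of their size in this list, Hoxc by the widest margin.

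PHF6 stood less far out by this measure. The share of tiles at or above the window was 1.52% at Hoxa, 2.84% at Hoxb, 2.79% at Hoxc and 2.04% at Hoxd, and the tile median was 1.23% to 1.24% of bases. Among tiles holding at least 1 H3K27ac peak, a restriction added after seeing the data, these shares were 3.0%, 4.95%, 5.66% and 4.13%. For H3K27ac the share over all tiles was 6.00% at Hoxa, 1.10% at Hoxb, 1.49% at Hoxc and 4.92% at Hoxd. Joint values were also taken. In H3K27me3 and PHF6 together 0 tiles (0.00%) reached the Hoxa, Hoxb or Hoxc window, and 5 of 18851 (0.0265%) reached the Hoxd window. In H3K27me3 alone only 4, 6 and 1 tiles had reached Hoxa, Hoxb and Hoxc. Joint counts could be no higher, so 0 does not show that PHF6 and H3K27me3 coincide there. With the tiles started midway, another setting added after seeing the data, 1 tile reached Hoxb and 1 reached Hoxd in both lists. In H3K27me3 and H3K27ac together 0.00569% of tiles reached Hoxa, 0.00796% Hoxb, 0.00530% Hoxc and 0.0318% Hoxd. At Hoxa, Hoxb and Hoxc this was 1 tile each, and each began at position 126000001 of chromosome 8. In H3K27ac and PHF6 together the shares were 1.26%, 0.860%, 1.05% and 1.54%.

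**Figure D3:**
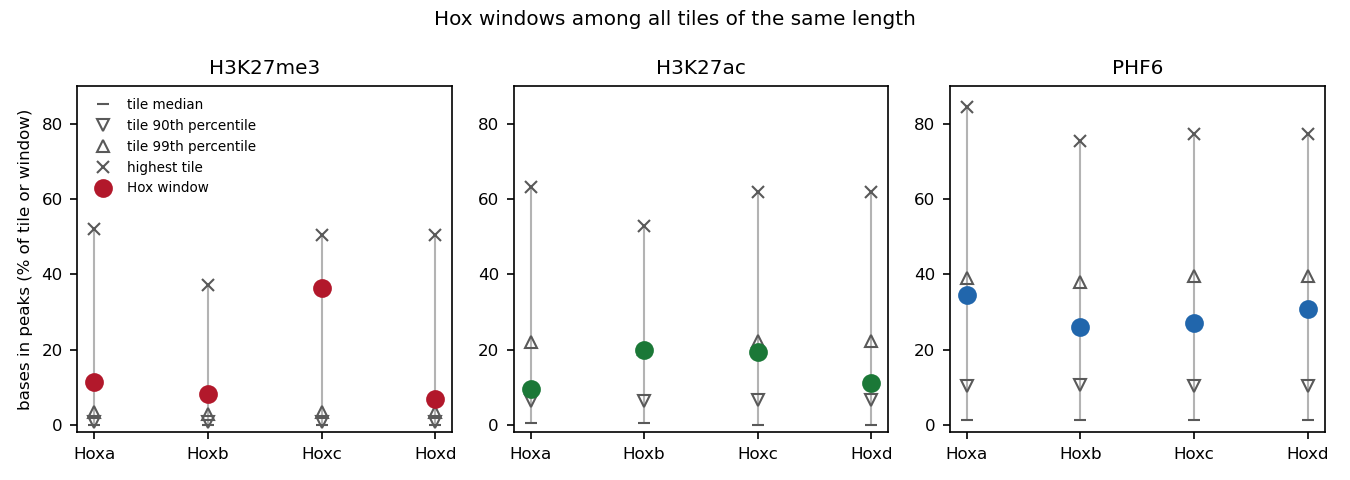
Bases in peaks as a percentage of each Hox window (coloured points) beside the median, 90th percentile, 99th percentile and highest of all genome tiles of the same length (grey marks). For H3K27me3 all 4 windows lie above the 99th percentile of tiles, and for PHF6 they lie between the 90th and the 99th.

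H3K27me3 separated the clusters from each other. Its peaks covered 11.4% of Hoxa (12 peaks), 8.14% of Hoxb (13 peaks), 36.5% of Hoxc (33 peaks) and 6.77% of Hoxd (8 peaks). Summits were 2.95 times as dense in Hoxc as in Hoxa (95% counting interval 1.48 to 6.27), 3.81 times as dense as in Hoxb (1.95 to 7.88) and 4.13 times as dense as in Hoxd (1.87 to 10.3). Among Hoxa, Hoxb and Hoxd the ratios were 1.08 to 1.4, and their intervals, from 0.416 at the lowest to 3.95 at the highest, all include 1. Hoxc also held the 2 tallest and the widest H3K27me3 peaks of the 4 windows. Summit height is the authors' pileup value, and its median was 15 in Hoxa, 14 in Hoxb, 15 in Hoxc and 15 in Hoxd, close to the list median of 16. The highest values were 20, 24, 35 and 18, so the clusters held many H3K27me3 peaks of ordinary height rather than tall ones. Many lay near the calling threshold, with a score under 100 in 41.7%, 46.2%, 51.5% and 37.5% of peaks, against 45.4% of the whole list.

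H3K27me3 peaks ran along the whole Hoxc window. All 14 of its 10 kb bins held H3K27me3 peak bases, and the longest stretch without them was 13.9 kb. Peaks joined at gaps of up to 5 kb gave 6 regions. The longest spanned 57.0 kb (chromosome 15, 102771115 to 102828151) with 19 peaks, ranked second of 4551 joined regions of the list by peak bases. Inside it lay the 7171 bp peak at 102789365 to 102796535 (height 33) and the 5353 bp peak at 102782546 to 102787898 (height 35). The lower 70 kb, at the Hoxc13 end, had 49.0% of its bases in H3K27me3 peaks and the upper 70 kb, at the Hoxc4 end, 23.9%. The densest 10 kb bins lay inside the window and not at the Hoxc13 end: those from 40 to 60 kb had 81.3% and 85.6% of bases in H3K27me3 peaks, while those from 10 to 30 kb had 11.0% and 7.14% and the first bin had 64.85%. Hoxc13 is a gene of hair and nail formation, and Hoxc4 is the most anterior Hoxc member.

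The Hoxa window was divided. All 12 H3K27me3 peaks lay in its upper 75 kb, at the Hoxa13 end, where 22.7% of bases were covered, and 0 lay in the lower 75 kb, at the Hoxa2 end. The first 83.6 kb of the window held none. The peaks formed 2 joined regions, of 19.2 kb with 5 peaks (chromosome 6, 52163575 to 52182793) and of 21.0 kb with 7 peaks (52197441 to 52218393), which ranked 12 and 15 of 4551. PHF6 occupied both sides, with 13 summits in the lower and 18 in the upper 75 kb. H3K27ac had 4 and 8 summits. Its 12 heights ran from 14 to 86 with a median of 18, below the list median of 35, and only the tallest, of height 86, was above that median. It lay at 52170960 to 52172686.

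The Hoxb window was split between the marks. The lower 105 kb, on the Hoxb13 side, held 11 of its 13 H3K27me3 peaks, and the upper 105 kb, on the Hoxb1 side, held 15 of its 21 H3K27ac summits. Most of the H3K27me3 lay towards the middle of the window and not at the Hoxb13 end. The 10 kb bins from 70 to 100 kb had 40.0%, 29.1% and 53.1% of bases in H3K27me3 peaks. The first bin had 25.3%, and the bins from 10 to 60 kb had none. H3K27me3 was absent for 74.2 kb, from 96139708 to 96213911. Inside that stretch lay the tallest H3K27ac peaks of the window, at 96143452 to 96149755 (height 263) and 96178981 to 96182021 (height 257). Another acetylated block, at the low end, held the peak at 96063147 to 96066429 (height 238) and was followed by 64.0 kb without H3K27ac. The longest joined H3K27me3 region, of 17.8 kb with 6 peaks (96031069 to 96048908), began below the window. The tallest H3K27me3 peak, at 96130994 to 96134205 (height 24), lay in an 11.8 kb joined region of 4 peaks that borders the H3K27me3-free stretch. It also held PHF6 of height 44 and H3K27ac of height 27. Hoxb1, a hindbrain gene, and Hoxb13, a gene of the posterior body, are the members at the 2 ends.

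The Hoxd window had the least H3K27me3. Its 8 H3K27me3 peaks fell in 6 joined regions, 4 of them single peaks, and the longest span was 5.86 kb. Heights were 13 to 18, and none of the 8 overlapped both other lists. H3K27ac lay mostly at the Hoxd13 end, with 12 of 15 summits in the lower 70 kb, and its heights were 13 to 147 with a median of 19. The tallest, at 74516860 to 74519235, overlapped an H3K27me3 peak at 1 end and a PHF6 peak elsewhere in its width. PHF6 had 14 summits in the lower and 11 in the upper 70 kb. From 74550602 to 74590721, a stretch of 40.1 kb, there was no H3K27ac peak.

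H3K27ac had 12 peaks in Hoxa, 21 in Hoxb, 19 in Hoxc and 15 in Hoxd, and the 6 ratios of summit density between clusters were 1.07 to 1.70 with intervals (0.514 to 3.83 at the extremes) that include 1. Peaks of height 100 or more numbered 0 in Hoxa, 5 in Hoxb, 3 in Hoxc and 1 in Hoxd, or 13.4% of the 67 peaks, against 31.8% of the whole list. Peaks covered 9.61% of Hoxa, 19.8% of Hoxb, 19.4% of Hoxc and 11.0% of Hoxd. Median heights were 18, 27, 23 and 19, all below the list median of 35 (quartiles 20 and 173). H3K27ac peaks at the clusters were thus mostly low, with a few tall ones, most of them in Hoxb and Hoxc.

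**Figure D4:**
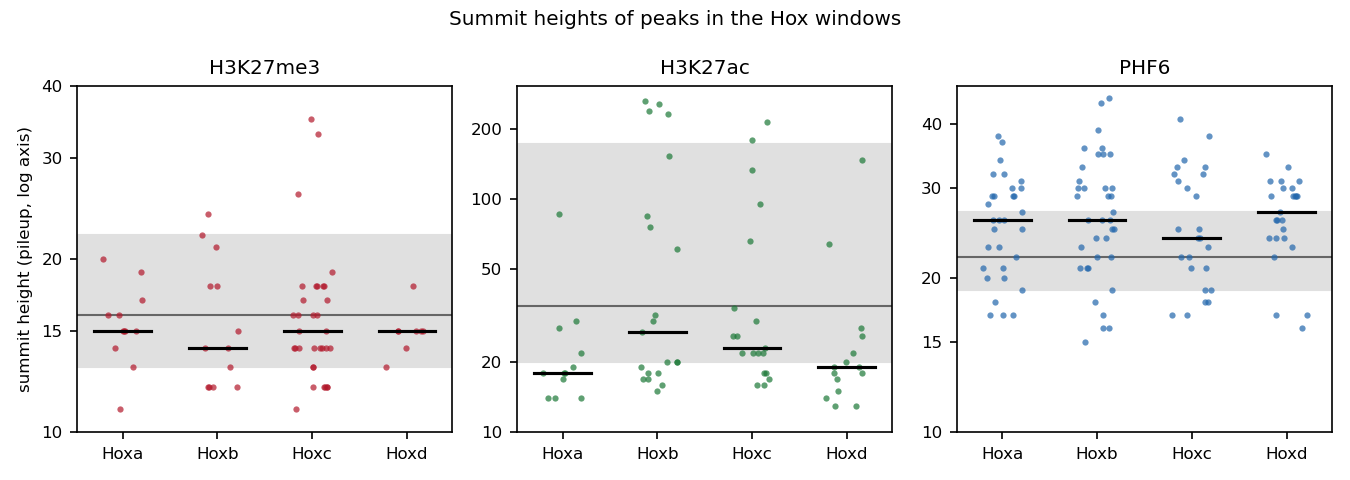
Summit heights of the peaks in each Hox window (points, 1 per peak, log axis; horizontal jitter has no meaning) with the window median (black bar) and, for the whole list, the median (line) and quartiles (grey band). Window medians for H3K27ac, 18 to 27, lie below the list median of 35, and those for PHF6, 24 to 27, lie above its list median of 22.

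PHF6 summit density varied less between the clusters than that of either mark. PHF6 had 31 peaks in Hoxa, 37 in Hoxb, 25 in Hoxc and 25 in Hoxd, covering 34.6%, 26.1%, 27.1% and 30.8% of bases. Summits stood at 20.7, 17.6, 17.9 and 17.9 per 100 kb, and the 6 ratios were 1 to 1.17 with intervals (0.551 to 2.04 at the extremes) that include 1. The median spacing of neighbouring PHF6 summits was 3.50 kb in Hoxa, 3.6 kb in Hoxb, 4.76 kb in Hoxc and 3.71 kb in Hoxd, against 7.55 kb over the whole list. Median heights were 26, 26, 24 and 27, above the list median of 22 (quartiles 19 and 27), and the tallest summit of the 4 windows had height 45. PHF6 at the clusters thus consisted of closely spaced peaks of moderate height. Hoxc, with the most H3K27me3 of the 4 windows, and Hoxd, with the least, held 25 PHF6 peaks each (ratio 1, 0.551 to 1.81). Hoxd was still among the most H3K27me3-covered stretches of its size, so this pair does not contrast marked with unmarked sequence.

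The tallest PHF6 summits of the clusters differed in the marks they lay in. In Hoxa the tallest PHF6 summit (height 38, peak 52166680 to 52168091) lay in H3K27ac and H3K27me3 peaks of heights 30 and 17, near the list medians of 35 and 16. In Hoxc the tallest PHF6 peak, at 102811241 to 102813091 (height 41), was also in both marks. In Hoxb the tallest, at 96155712 to 96157509 (height 45), was in H3K27ac only. In Hoxd the tallest, at 74492930 to 74494646 (height 35), was in neither.

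The second comparison asked how the lists lay on each other within the clusters. Nearly every H3K27ac peak there held PHF6, 62 of 67 (92.5%, 83.4 to 97.5), against a background of 71.7% of the whole list and 23 of 28 (82.1%, 63.1 to 93.9) in the flanks. By cluster this was 12 of 12 in Hoxa, 19 of 21 in Hoxb, 16 of 19 in Hoxc and 15 of 15 in Hoxd. The weak peaks were included: of H3K27ac peaks with height under 30, 44 of 46 (95.7%, 85.2 to 99.5) held PHF6, against 70.5% of such peaks in the whole list. The summits were close, with a median of 127 bp from an H3K27ac summit to the nearest PHF6 summit, and 52 of 67 (77.6%) lay within 500 bp, against 58.8% of the list. All 9 H3K27ac peaks of height 100 or more held PHF6, against 89.7% of such peaks in the list. H3K27me3 overlapped 15 of the 67 H3K27ac peaks (22.4%, 13.1 to 34.2), against 3.58% of the list and 4 of 28 (14.3%, 4.03 to 32.7) in the flanks, whose interval overlaps that of the windows. All 15 also held PHF6. In the whole list 996 H3K27ac peaks were in both other lists and 162 in H3K27me3 only.

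PHF6 seen from its own peaks was more often marked in the clusters than over the whole list. Of 118 PHF6 peaks 61 overlapped H3K27ac (51.7%, 42.3 to 61), against 30.3% of the list. H3K27me3 overlapped 31 of them (26.3%, 18.6 to 35.2), against 1.88% of the list. In the flanks these shares were 36.7% (24.6 to 50.1) and 15% (7.10 to 26.6) of 60 peaks. For both shares the flank interval overlaps that of the windows. PHF6 peaks in neither mark made up 40 of 118 (33.9%), against 69.1% of the list. Those with H3K27ac had a median height of 29 (quartiles 25 and 33) and those without 22 (19 and 27), and over the list the medians were 29 and 20.

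H3K27me3 peaks in the windows held PHF6 in 28 of 66 cases (42.4%, 30.3 to 55.2), against 26.0% of the list and 9 of 25 (36.0%, 18.0 to 57.5) in the flanks. They held H3K27ac in 14 of 66 (21.2%, 12.1 to 33.0), against 21.0% of the list and 4 of 25 (16%, 4.54 to 36.1) in the flanks. The window and flank intervals overlap for both shares. The first share was 27.3% when the H3K27me3 summit had to lie inside the PHF6 peak, and 57.1% at a score of at least 100 in all lists. The second was 34.3% at that score. Whole-list shares were not taken under these settings, so the 26.0% and 21.0% are no match for these values. PHF6 was in 13 of the 14 H3K27me3 peaks with H3K27ac (92.9%, 66.1 to 99.8; 78.9% of the list) and in 15 of the 52 without (28.8%, 17.1 to 43.1; 11.9% of the list). Among peaks without H3K27ac this was 4 of 8 in Hoxa, 5 of 11 in Hoxb, 3 of 26 in Hoxc and 3 of 7 in Hoxd. In Hoxc 23 of 33 H3K27me3 peaks (69.7%) were in no other list, against 69.6% of the whole list, and 11.5% (2.45 to 30.2) of those without H3K27ac held PHF6, so both shares were near the list's. Taller H3K27me3 peaks, of height 16 or more, held PHF6 in 16 of 26 cases (61.5%, 40.6 to 79.8) and lower ones in 12 of 40 (30%, 16.6 to 46.5). Over the list these shares were 29.1% and 22.2%.

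**Figure D5:**
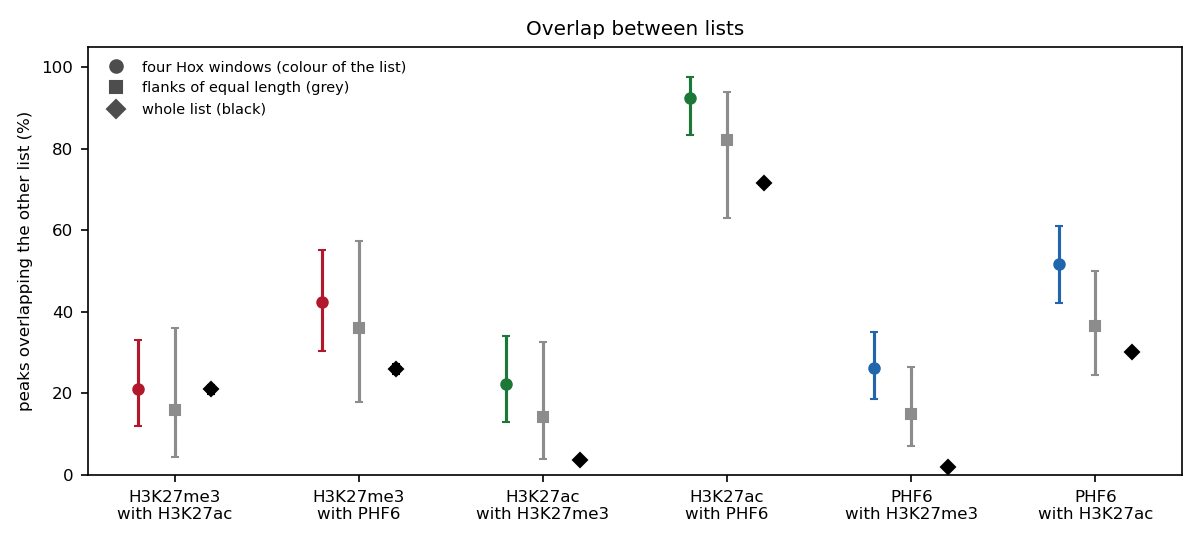
Percentage of peaks of each list that overlap another list by at least 1 bp, in the 4 Hox windows (circles), the flanks (squares) and the whole list (diamonds), with 95% exact binomial intervals. For H3K27me3 peaks with H3K27ac the windows, 21.2%, lie near the list's 21.0%, while PHF6 peaks overlap H3K27me3 in 26.3% of cases in the windows and 1.88% over the list.

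Because H3K27me3 covers more of the windows than of most of the genome, the overlap was also taken by bases within the windows. H3K27me3 peaks held 18.0% of PHF6 bases and 14.8% of all window bases, a ratio of 1.22. H3K27ac peaks held 42.0% of PHF6 bases and 15.4% of window bases, a ratio of 2.73. Between the marks, H3K27ac held 14.2% of H3K27me3 bases, a ratio of 0.921. Within the clusters PHF6 bases therefore lay with acetylation more than with trimethylation. The H3K27me3 ratio for PHF6 bases was 1.47 in Hoxa, 1.85 in Hoxb, 0.959 in Hoxc and 1.24 in Hoxd, and the H3K27ac ratio was 2.85, 2.62, 2.98 and 3.0. These ratios use whole-window coverage. In the upper 75 kb of Hoxa, which held all its H3K27me3, PHF6 peaks covered 46.4% of bases, against 34.6% of the window.

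Relative to coverage, the 2 marks shared the most bases at Hoxa and the fewest at Hoxd. H3K27ac held 17.1% of H3K27me3 bases in Hoxa (ratio 1.78), 15.4% in Hoxb (0.775), 15.2% in Hoxc (0.783) and 1.57% in Hoxd (0.142). Coverage was that of the whole window. All H3K27me3 of Hoxa lay in its upper 75 kb, where H3K27ac peaks covered 13.6% of bases, against 9.61% of the window. A ratio taken within that side would be lower than 1.78. Bases in all 3 lists amounted to 2.91 kb in Hoxa, 2.63 kb in Hoxb, 7.66 kb in Hoxc and 0 in Hoxd. Lists of regions do not show whether both marks were present in the same cell or on the same allele.

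At a coarser scale most of each cluster carried some signal. Of 64 bins of 10 kb, 56 held PHF6 peak bases, 43 H3K27ac and 33 H3K27me3, against 21.0%, 11.1% and 1.98% of 264123 bins over all chromosomes. All 3 lists were present in 25 bins, against 0.661% of bins genome-wide. Hoxc had 13 of its 14 bins with all 3, Hoxa 6 of 15, Hoxd 4 of 14 and Hoxb 2 of 21. In all, 13 of 66 H3K27me3 peaks (19.7%) overlapped both other lists, near the 16.6% of the whole list, 4 in Hoxa, 2 in Hoxb, 7 in Hoxc and 0 in Hoxd.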

How the data were processed

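Members, windows and lists were chosen with earlier results of these data known. Per the submitters' processing notes, Bowtie2, SAMtools and MACS 1.4.0 were used with mm9, with no order or options given. File names give a threshold of 1e-6 and mark PHF6 and H3K27ac, but not H3K27me3, as called without local lambda. The authors deposited 1 score per peak and 1 whole-number pileup signal per summit, here called height. Both are the authors' values, used only within 1 list. Read totals are not in the sources used here, so sequencing depth is unknown.

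Peaks counted in a window when overlapping it by at least 1 bp, and bases were clipped to it. Densities used summits. Shares have exact (Clopper-Pearson) intervals, density ratios exact conditional binomial intervals. Named peaks were the 3 tallest and the widest per list and window, and the longest joined H3K27me3 region (gaps up to 5 kb); peak-free stretches and other joined regions were chosen after their values were seen. Marker genes and the lists of HOX cofactors and of Polycomb and Trithorax regulators were not analysed here because they need mm9 gene positions. Routines were tested on simulated lists. Software was matplotlib 3.10.9, scipy 1.17.1, pandas 2.3.3 and numpy 2.4.6 under Python 3.11.15.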

Additional observations from a re-analysis of the deposited data

How the results depend on the processing

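Alternatives were a score of at least 100, overlap of 50% of the shorter peak or of the summit, flanks of 2 window lengths or starting 20 kb away, windows widened by 20 kb, counting by summit, leaving out peaks in all 3 lists and leaving out each window. Of 75 such values for density ratios and overlap shares, 70 stayed within the 95% interval of the value reported. The H3K27me3 density ratio (5.28) was 9.64 without the Hoxb window. The share of H3K27me3 peaks with PHF6 (42.4%) was 27.3% with the summit inside the PHF6 peak. At a score of at least 100 that share was 57.1%, H3K27me3 peaks with H3K27ac (21.2%) stood at 34.3% and H3K27ac peaks with PHF6 (92.5%) at 83.0%. The same score left 7, 7, 16 and 5 H3K27me3 peaks in Hoxa, Hoxb, Hoxc and Hoxd and 7 H3K27ac peaks in Hoxa, since it removes peaks by construction; Hoxc kept the most. Other peak counts stayed within 1.5 times. Tile runs were added after seeing the data. Among tiles with H3K27ac, 2 reached Hoxa and 2 reached Hoxb in H3K27me3. With tiles started midway, 1 reached Hoxb and 1 reached Hoxd in both H3K27me3 and PHF6. The lowest density ratio pooled over windows was 3.32 under any setting (PHF6, without the Hoxd window). Single windows went lower, to 1.86 for H3K27me3 at Hoxb. No paired analysis was possible because there was only 1 library per antibody, and a difference between libraries cannot be told apart from one between antibodies. Heights depend on an unknown depth.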
